A study of Rattus norvegicus with 30 samples.

Results

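The genes described here are 9 genes by which Sertoli cells are recognised and their maturation followed: Sox9, Sox8, Wt1 and Gata1, which encode transcription factors, Amh and Fshr, which encode a hormone and a hormone receptor, Clu and Shbg, which encode secreted proteins, and the homeobox gene Rhox5. They were found by matching rat gene symbols to the Entrez Gene identifiers of the deposited table, which lists 17322 genes, and all 9 had an entry. Of these, 8 were detected and entered the tests. Gata1 is listed at 0 in all 29 libraries used. The same is true of 1973 genes in all, among them the widely used genes Ppia, Hprt1 and Rps18, so nothing can be read from the value of Gata1 beyond its being listed at 0.

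Polyadenylated RNA was sequenced from the testes of Wistar Han rats at 6 ages, namely 8.5 and 14.5 days postpartum (dpp), 24.5 dpp with 30.5 dpp, and 36.5 dpp with 53.5 dpp, and from explants taken at 8.5 dpp and kept in culture, where D6, D16, D22 and D28 stand for 6, 16, 22 and 28 days. The sample titles give the unit as dpc and the age labels as postnatal days, and postnatal days were used. Explants were fragments of testes laid on agarose at the gas-liquid interphase, in αMEM with serum replacement, retinol and vitamin E, without added gonadotropin or androgen in the composition given. Each cultured library pooled explants, after removal of their necrotic centre, whereas each in vivo library came from a different testis. No group carried a genetic alteration. Each group has 3 libraries except 14.5 dpp, where 1 of 3 libraries, excluded by the study and listed at 0 for every gene, was left out and 2 remained. On the day scale used below, D6 corresponds to 14.5 dpp, D16 to 24.5 dpp, D22 to 30.5 dpp and D28 to 36.5 dpp. Values are FPKM, that is fragments per kilobase of transcript scaled to the mapped reads of a library, so levels can be compared between genes. Between libraries they compare shares of the reads, which also move when other genes take up more or fewer of them. Read counts were not used, and the depth behind each value is unknown.

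Sertoli cells line the seminiferous tubules, nurse the germ cells and are the target of FSH and testosterone. Before puberty they divide and secrete anti-Müllerian hormone (AMH). At puberty they stop dividing, form the blood-testis barrier and shift their secretion towards products that serve the growing germ cells. A fall of Amh with a rise of products such as Clu and Shbg is a common sign of that passage, while Sox9 and Wt1 mark the cell type throughout.

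The stretch of 250 bases before the transcription start is given for Amh, Fshr and Shbg, since these 3 genes followed different courses in the same libraries. Promoters were available for 5 of the 9 genes and are credited to RefSeq, in build GRCr8, which is not the build (rn6) of the expression values. They are written 5′ to 3′ along the gene. The Amh stretch lies on the minus strand at chr7:9559868-9560117, that of Fshr on the plus strand at chr6:10952079-10952328 and that of Shbg on the minus strand at chr10:54834902-54835151. Capitals mark short motifs that were searched for on both strands. The motif of NR5A1 was AAGGTCA. Those of GATA factors were AGATAA, its form AGATAG with another last base, and also TGATAA with its own form TGATAG. The E-box was CACGTG and the short motif of the androgen receptor was AGAACA. Those of SOX factors were AACAAT and, as a longer form, AACAAAG.
Amh: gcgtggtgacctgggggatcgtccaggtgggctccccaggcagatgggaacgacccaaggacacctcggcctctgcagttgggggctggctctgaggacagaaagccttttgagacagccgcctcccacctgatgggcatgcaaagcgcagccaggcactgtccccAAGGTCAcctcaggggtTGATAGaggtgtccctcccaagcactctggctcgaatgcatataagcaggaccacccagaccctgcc
Fshr: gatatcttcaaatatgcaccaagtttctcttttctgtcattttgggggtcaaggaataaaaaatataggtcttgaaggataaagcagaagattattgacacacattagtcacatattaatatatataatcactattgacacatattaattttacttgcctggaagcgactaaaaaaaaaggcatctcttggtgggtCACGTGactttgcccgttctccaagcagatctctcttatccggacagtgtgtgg
Shbg: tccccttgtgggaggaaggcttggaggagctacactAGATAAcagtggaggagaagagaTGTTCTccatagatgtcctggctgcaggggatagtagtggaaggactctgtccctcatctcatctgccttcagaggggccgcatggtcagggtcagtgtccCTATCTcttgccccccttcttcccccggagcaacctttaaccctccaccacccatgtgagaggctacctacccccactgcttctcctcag

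The Amh stretch held the NR5A1 motif at bases -84 to -78 from the start and a GATA motif at -67 to -62. That of Fshr held an E-box at -54 to -49. That of Shbg held GATA motifs at -214 to -209 and, on the other strand, at -90 to -85, and the androgen receptor motif, also on the other strand, at -191 to -186. Among the 33469 rat promoters of the same table, 3.99% held the NR5A1 motif, 27.0% a GATA motif, 5.59% the E-box, 17.5% the androgen receptor motif and 14.8% a SOX motif. None of the 3 stretches printed held a SOX motif. These matches describe letters in a window and were not related to binding. Promoters of Clu, Rhox5, Sox9 and Sox8 were not analysed here.

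The question asked first was how the genes run through the first wave of spermatogenesis in the testis itself. Sox9, the transcription factor that sets and maintains Sertoli cell fate, stood at 40.5, 39.9 and 29 FPKM at 8.5 dpp and at 56.5 and 75.3 at 14.5 dpp. It then measured 14.0, 15.0 and 22.0 FPKM at 24.5 dpp, 5.19, 5.33 and 5.00 at 30.5 dpp, 4.63, 4.20 and 5.06 at 36.5 dpp and 2.39, 3.20 and 2.52 at 53.5 dpp. The highest age mean of Sox9 was 24.4 times the lowest, and the libraries of 14.5, 24.5 and 30.5 dpp did not overlap. Wt1, a zinc finger factor needed for the identity of Sertoli cells, ran from 98.8 to 120 FPKM at 8.5 dpp and from 116 to 145 at 14.5 dpp, and then down to between 10.5 and 13.1 at 53.5 dpp. Sox8, a close relative of Sox9, went from 19.0 to 22.0 FPKM at 8.5 dpp down to 2.62 to 3.51 at 53.5 dpp. In these bulk samples a smaller share of Sertoli cells in the tissue, which falls as germ cells are added even where no Sertoli cell is lost, and less RNA of a gene per Sertoli cell cannot be told apart.

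Clu and Shbg ran another course, with a peak at 24.5 dpp. Clu encodes clusterin, an abundant glycoprotein secreted by Sertoli cells. It stood at 153, 185 and 166 FPKM at 8.5 dpp, at 423 and 998 at 14.5 dpp and at 1499, 1366 and 2082 at 24.5 dpp, where it was the gene with the highest FPKM in each of the 3 libraries. It then fell to 520 to 645 FPKM at 30.5 dpp and to 214 to 356 at 53.5 dpp. Shbg, which encodes the androgen-binding protein of the rat testis, stood at 28.9, 21.4 and 19.7 FPKM at 8.5 dpp, at 49.9 and 177 at 14.5 dpp, at 291, 258 and 411 at 24.5 dpp, and between 28.3 and 35.7 at 53.5 dpp. No 24.5 dpp library of either gene overlapped with another in vivo age. Both genes were also picked by the study on these same samples, by comparing D16, D22 and D28 explants with 14.5 dpp testes. The rises given here share the 14.5 dpp libraries with that comparison and are not independent evidence.

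Amh had a lower mean at each later age. This hormone of the immature Sertoli cell measured 126, 85.7 and 73.8 FPKM at 8.5 dpp, 52.8 and 85.3 at 14.5 dpp and 25.4, 18.2 and 59.5 at 24.5 dpp. It then measured 6.96, 4.82 and 5.61 FPKM at 30.5 dpp, 4.29, 4.88 and 3.55 at 36.5 dpp and 1.22, 1.72 and 1.96 at 53.5 dpp. Its highest age mean was 58.3 times its lowest, the widest range of the 8 detected genes. Fshr, the receptor by which Sertoli cells respond to FSH, stood at 8.92, 9.57 and 9.50 FPKM at 8.5 dpp, at 10.1 and 6.29 at 14.5 dpp and at 3.37, 3.13 and 6.17 at 24.5 dpp. From 30.5 dpp on, all 9 libraries lay between 0.853 and 1.55 FPKM. Rhox5, a homeobox gene that responds to androgen in Sertoli cells, was low in all libraries, from 0 to 2.41 FPKM, and neighbouring ages overlapped except 24.5 and 30.5 dpp, with 1 library of 30.5 dpp listed at 0.

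**Figure D1:**
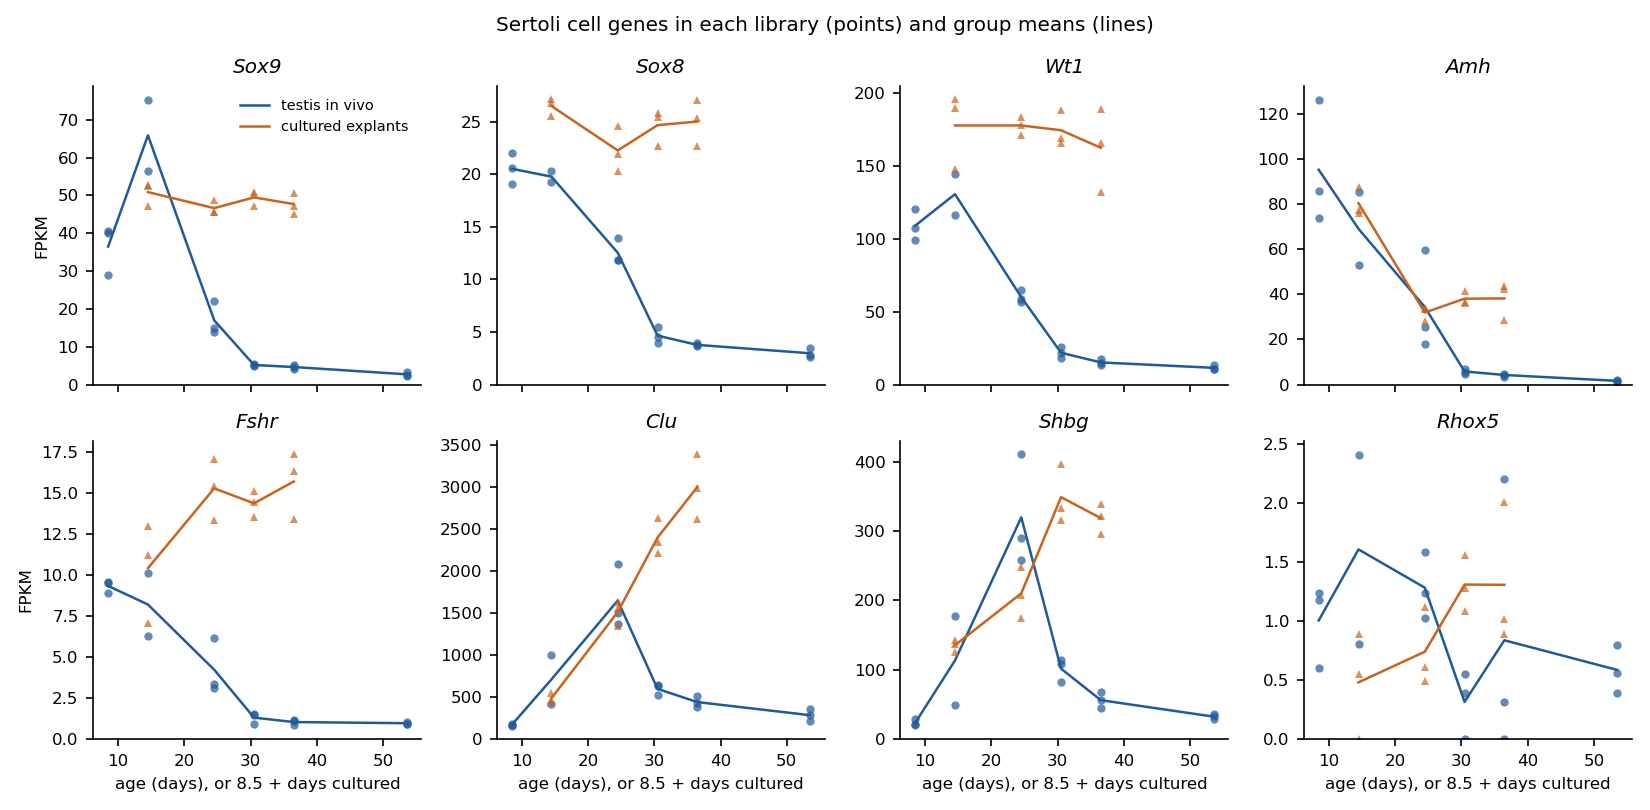
FPKM of the 8 detected genes in each library against age in days (8.5 plus days in culture for explants), blue circles for testes and orange triangles for explants, with lines through the group means. Sox9, Sox8, Wt1 and Fshr stood higher in every explant library than in any testis of 24.5 dpp or older, and Clu reached 1499, 1366 and 2082 FPKM at 24.5 dpp against 2618 to 3391 at D28.

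Ages were compared in 1 limma fit of the 6 ages on log2(FPKM + 1), with p-values adjusted by Benjamini-Hochberg over 12531 genes. Calls needed both an adjusted p no higher than 0.05 and group medians differing by a factor of 2 or more. From 8.5 to 14.5 dpp, 2 of the 8 genes tested were called, Shbg (log2 fold change 1.99, standard error 0.38, limma adjusted p = 0.00110) and Clu (1.95, 0.30, 0.000200), where 14.7% of all genes tested were called. Sox9 (0.84, limma adjusted p = 0.00322) was higher on the p-value alone. From 14.5 to 24.5 dpp, 6 of 8 were called against 35.6% of all genes. Shbg (1.73) and Clu (1.32) rose again, while Sox9 (-1.91), Amh (-1.12), Wt1 (-1.11) and Fshr (-0.83) fell. Sox8 (-0.62, limma adjusted p = 0.000643) passed on the p-value alone. From 24.5 to 30.5 dpp, 7 of 8 fell, all but Rhox5 (limma adjusted p = 0.0504), where 24.5% of all genes tested fell. The largest fall was that of Amh, at -2.21 with a standard error of 0.33.

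Few changes followed. From 30.5 to 36.5 dpp none of the 8 genes was called by limma, although 2 had an unadjusted p under 0.05, and the share among all genes was 7.49%. Wt1 (-0.50, limma adjusted p = 0.0168) passed on the p-value alone in that step, as did Sox9 (-0.61, 0.0132) from 36.5 to 53.5 dpp. From 36.5 to 53.5 dpp Amh alone was called (-0.99, standard error 0.33, limma adjusted p = 0.0313), where 6.54% of all genes were, and it was no longer called without the filter on low values (adjusted p = 0.0656), with quantile normalization (0.223) or without replicate 1 or 2 of either age (0.0667 to 0.0969).

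Some of these calls rest on single libraries. The 14.5 dpp libraries differed 3.55-fold in Shbg, 2.36-fold in Clu and 1.33-fold in Sox9. Without 14.5 dpp replicate 1, the rises from 14.5 to 24.5 dpp of Clu (0.70) and Shbg (0.82) were no longer called, and neither was the fall of Fshr (-0.53). Without 14.5 dpp replicate 2 the falls of Amh (-0.78) and Wt1 (-0.95) were not called. At 24.5 dpp, replicate 3 held the highest value of every detected member, and without replicate 1 or 2 of that age the falls of Amh (-1.0 and -0.77) and Fshr (-0.73 and -0.68) were not called. Summed markers of other cells moved with these libraries. Of the 2 libraries of 14.5 dpp, replicate 2 held 74.5 FPKM of 6 summed spermatocyte genes against 14.5 in replicate 1, and 306 FPKM of 6 Leydig cell genes against 145. At 24.5 dpp the Leydig sum was 66.3 FPKM in replicate 3 against 595 and 357 in the others. Replicate 3 also held the lowest spermatocyte sum (874 against 977 and 1003 FPKM) and the highest spermatogonial sum (119.5 against 77.16 and 64.95). The part of these other cells in the values of the Sertoli genes was not tested.

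The next question was how the same genes ran in explants. Sox9 measured 52.9, 52.6 and 47.2 FPKM at D6, 45.6, 48.7 and 45.6 at D16, 47.3, 50.8 and 50.3 at D22 and 47.2, 50.7 and 45.2 at D28. Its 12 cultured libraries all lay between the testes of 8.5 and 14.5 dpp. Wt1 lay between 132 and 195 FPKM in the 12 cultured libraries, and 8 of the 9 libraries of D16 to D28 exceeded every testis at any age. Sox8 lay between 20.3 and 27.2 FPKM, and 7 of those 9 libraries exceeded every testis.

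Amh measured 77.6, 76.1 and 87.5 FPKM at D6, 28.1, 34.1 and 33.6 at D16, 36.5, 41.3 and 36.4 at D22 and 42.2, 28.5 and 43.8 at D28. Its libraries of D16 to D28 lay below all those of 8.5, 14.5 dpp and D6 and above all those of 30.5 dpp and older, and overlapped with 24.5 dpp. Fshr went the other way. It measured 11.2, 13.0 and 7.06 FPKM at D6, 15.4, 13.4 and 17.1 at D16, 13.5, 15.1 and 14.4 at D22 and 13.4, 16.3 and 17.4 at D28. All 9 libraries of D16 to D28 exceeded every testis, of which the highest held 10.1 FPKM.

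Clu measured 554, 436 and 468 FPKM at D6, 1340, 1559 and 1637 at D16, 2630, 2344 and 2219 at D22 and 2989, 2618 and 3391 at D28. It ranked first or second among all genes in every library of D22 and D28, and 6 of the 9 libraries of D16 to D28 exceeded every testis. Shbg measured 137, 126 and 143 FPKM at D6, 175, 248 and 209 at D16, 398, 334 and 316 at D22 and 295, 339 and 322 at D28, within the range of the testes at 24.5 dpp from D22 on. Rhox5 stayed between 0 and 2.01 FPKM. In build GRCr8, Clu overlaps Scara3 and a pseudogene, and Shbg overlaps Sat2, and the libraries were stranded and StringTie was run by the study at its default settings, with no strand option named. Sat2 ranged from 69.1 to 82.2 FPKM at D28 and from 32.7 to 39.9 at 24.5 dpp, and Scara3 from 14.2 to 28.0 at D28 and from 1.28 to 4.08 at 24.5 dpp, below Shbg and Clu in those libraries. At 8.5 dpp, the start of the rises of Shbg, Sat2 ranged from 33.9 to 40.3 FPKM, above every Shbg library of that age. A share of reads moved between overlapping genes was not tested.

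Culture times were compared in 1 limma fit with the 8.5 dpp testes over 11539 genes. Over the first 6 days, 2 of 8 genes were called, where 16.1% of all genes were. Shbg rose by 2.5 (standard error 0.15, limma adjusted p = 5.36e-08) and Clu by 1.53 (0.13). Passing on the p-value alone were Wt1 (0.69), Sox9 (0.48) and Sox8 (0.35), each higher at D6. From D6 to D16 Clu rose by a further 1.64 (standard error 0.13) and Amh fell by 1.31 on the log2 scale (0.19), which were 2 of 8 genes against 3.21% of all genes. Shbg (0.62, limma adjusted p = 0.0132) and Fshr (0.54, 0.0385) passed on the p-value alone, both higher at D16. From D16 to D28 none of the 8 was called by limma, 2 had an unadjusted p under 0.05, and 0.936% of all genes were called. Clu nevertheless differed by 0.98 (standard error 0.13, limma adjusted p = 0.00139), with a ratio of medians under 2, and Shbg by 0.61 (0.15, 0.0420).

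The study set explants against testes of 14.5 dpp, an age at which meiosis has just begun. Clu was called higher at D16, D22 and D28, with log2 fold changes of 1.21, 1.88 and 2.20 (standard error 0.29 in each case, limma adjusted p = 0.0105, 0.00104 and 0.000391). Shbg was called higher at D22 (1.87, standard error 0.40, limma adjusted p = 0.00586) and D28 (1.75, 0.40, 0.00729), and stood at 1.14 with an adjusted p of 0.0537 at D16. The study picked Clu and Shbg through this same comparison, so these calls are not independent evidence. Amh was called lower at D16 (-1.05, standard error 0.22, limma adjusted p = 0.00605). At D22 and D28 Amh differed by -0.80 and -0.82, with adjusted p of 0.0192 and 0.0155 and a ratio of medians under 2. The other members were not called. In each of the 3 comparisons 2 of 8 genes were therefore called, against 13.0%, 13.8% and 15.3% of the 11517 genes tested. The median log2 fold change of the 8 genes at D28 was 0.31, and that of all genes tested was -0.08.

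Differences under 2-fold passed the p-value for further genes. Fshr was higher at D16 (0.85), D22 (0.77) and D28 (0.88), with limma adjusted p of 0.00615, 0.00885 and 0.00396. Sox9 differed by -0.48, -0.39 and -0.44, with adjusted p of 0.0141, 0.0294 and 0.0155. Sox8 differed by 0.32 at D28 (limma adjusted p = 0.0459) and Wt1 by 0.45 at D16 (0.0448). At the first culture time, D6, none of the 8 genes was called against 14.5 dpp by limma, 2 had an unadjusted p under 0.05, and 7.94% of all genes were called. Leaving out 1 of the 14.5 dpp libraries ended several calls. Without replicate 1, Clu at D16 stood at 0.59, Shbg at D22 at 0.97 and Shbg at D28 at 0.84. Without replicate 2, Amh at D16 stood at -0.71, with a limma adjusted p of 0.0521. Clu at D22 and D28 was called without either.

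**Figure D2:**
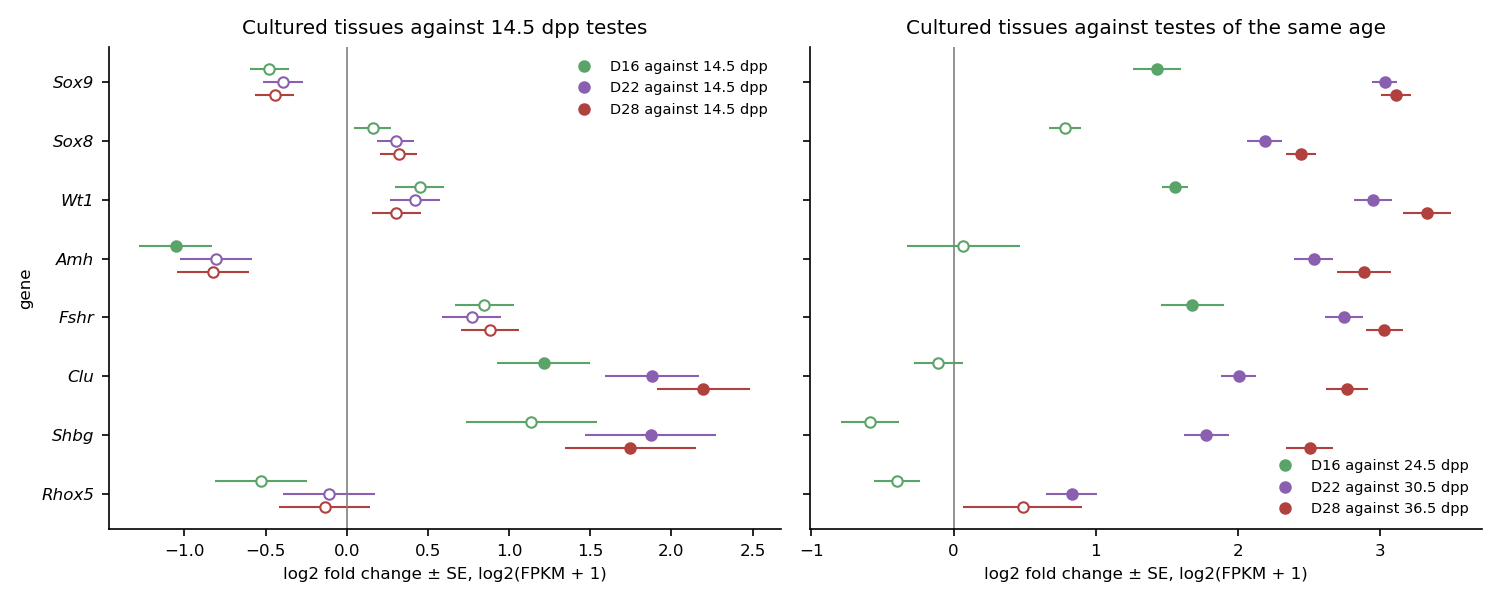
Log2 fold change (x axis, log2(FPKM + 1), bars are standard errors) of each detected gene (y axis) in D16, D22 and D28 tissues against 14.5 dpp testes on the left and against testes of the same age on the right, with filled points for called genes. On the left Clu and Shbg lie highest and Amh lowest, and on the right all D22 points lie between 0.83 and 3.03.

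Against testes of the same age, 3 of the 8 genes were called higher at D16, all 8 at D22 and 7 at D28. The step from D16 to D22 ran beside the fall of 7 genes in the testis from 24.5 to 30.5 dpp. At D16, Fshr was higher than at 24.5 dpp by 1.68 (standard error 0.22, limma adjusted p = 0.000524), Wt1 by 1.56 (0.09, 1.91e-05) and Sox9 by 1.43 (0.17, 0.000303). These were 3 of 8 genes, all higher, where 25.3% of all genes tested were called higher. Sox8 (0.78, limma adjusted p = 0.000741) passed on the p-value alone. Amh (0.07, standard error 0.39) and Clu (-0.11, 0.18) did not pass the test, and Shbg stood at -0.59 with an adjusted p of 0.0366 and a ratio of medians under 2. Their standard errors leave room for differences of either sign in Amh and Clu.

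At D22 all 8 genes were called higher than at 30.5 dpp, where 42.1% of all genes tested were, with log2 fold changes from 0.83 for Rhox5, listed at 0 in 1 library of 30.5 dpp, to 3.03 for Sox9. At D28, 7 of 8 were called higher than at 36.5 dpp, where 46.7% were. Wt1 led with 3.33 (standard error 0.17), followed by Sox9 with 3.11 (0.11), Fshr with 3.03 (0.13), Amh with 2.89 (0.19), Clu with 2.77 (0.15), Shbg with 2.5 (0.17) and Sox8 with 2.44 (0.11), each with a limma adjusted p of at most 4.63e-06. Rhox5 stood at 0.48 (standard error 0.42, limma adjusted p = 0.308). The median over the 8 genes was 2.83, against 0.64 over all 12210 genes tested. Spermatid genes summed to between 3889 and 5678 FPKM at 36.5 dpp and to between 3.56 and 4.51 at D28. Whether germ cell content has a part in the shift of the whole table was not tested. All 7 calls of D28 kept their direction and their call with quantile normalization.

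The change over the same span of days was compared directly, as the change from D6 to D28 minus the change from 14.5 to 36.5 dpp, in 1 limma fit of these 4 groups. It was called higher in culture for 7 of the 8 genes, where 38.4% of 12482 genes were. The difference was 3.47 for Sox9 (standard error 0.18), 3.19 for Clu (0.40), 2.89 for Wt1 (0.26), 2.72 for Fshr (0.32), 2.63 for Amh (0.31), 2.04 for Sox8 (0.13) and 1.99 for Shbg (0.54), with limma adjusted p from 5.82e-08 for Sox9 to 0.00688 for Shbg. It was 1.28 for Rhox5 (standard error 0.65, limma adjusted p = 0.0949).

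Since the share of Sertoli cells in the tissue can change, members were also set against each other within each library. These ratios of FPKM are a description with no test, with the lowest and highest library in brackets. Clu per Sox9 was 4.71 (3.77 to 5.72) at 8.5 dpp, 10.4 (7.48 to 13.3) at 14.5 dpp and 97.8 (91.0 to 107) at 24.5 dpp, and from then on no age mean left the range of 96.6 to 116. The fall of Clu in FPKM after 24.5 dpp therefore ran beside a like fall of Sox9. In explants the ratio was 9.57 (8.30 to 10.5) at D6, 32.4 (29.4 to 35.9) at D16, 48.6 (44.2 to 55.6) at D22 and 63.3 (51.7 to 75.0) at D28. All 9 libraries of D16 to D28 lay below every testis of 24.5 dpp and older, of which the lowest, at 36.5 dpp, stood at 76.1.

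Shbg per Sox9 also ended lower in explants. It was 0.643 (0.536 to 0.713) at 8.5 dpp, 18.9 (17.2 to 20.8) at 24.5 dpp and 12.3 (9.53 to 16.3) at 36.5 dpp, against 2.67 (2.39 to 3.03) at D6 and 6.69 (6.25 to 7.12) at D28. With Wt1 in place of Sox9, Clu stood at 29.4 (24.0 to 34.9) at 36.5 dpp and 19.0 (13.9 to 22.6) at D28, and Shbg at 3.81 (2.48 to 4.66) and 1.99 (1.79 to 2.23), so D28 was below 36.5 dpp with either denominator. The order in FPKM was the reverse. No further marker of Sertoli cells was used as denominator for Clu and Shbg. Sox9 per Sox8 was itself higher at D28, at 1.92 (1.74 to 2.24), than at 36.5 dpp, at 1.23 (1.06 to 1.40). In log2 fold change at D28 against 36.5 dpp, Sox8 (2.44) lay close to Shbg (2.5) and Clu (2.77) and below Sox9 (3.11) and Wt1 (3.33). The lower ratios at D28 are therefore shown for Sox9 and Wt1 as denominators only, and ratios to Sox8 could order D28 and 36.5 dpp differently.

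Amh per Sox9 was 2.60 (2.15 to 3.12) at 8.5 dpp, 1.03 (0.934 to 1.13) at 14.5 dpp, 1.91 (1.21 to 2.71) at 24.5 dpp and 0.930 (0.700 to 1.16) at 36.5 dpp. In explants it was 1.59 (1.45 to 1.86) at D6, 0.684 (0.616 to 0.736) at D16 and 0.809 (0.563 to 0.970) at D28. The libraries of D28 and 36.5 dpp overlapped in this ratio, while in FPKM Amh at D28 exceeded that at 36.5 dpp in every library. Amh per Shbg, which needs no marker of cell number, was 4.04 (3.75 to 4.37) at 8.5 dpp, 0.770 (0.482 to 1.06) at 14.5 dpp, 0.101 (0.0703 to 0.145) at 24.5 dpp and 0.0774 (0.0633 to 0.0972) at 36.5 dpp. It went from 0.594 (0.564 to 0.613) at D6 to 0.153 (0.138 to 0.161) at D16 and 0.121 (0.0842 to 0.143) at D28, so the turn from Amh to Shbg took place in explants too, and the libraries of D28 overlapped with those of 24.5 and 36.5 dpp.

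Fshr per Sox9 moved little beside these ratios. It lay between 0.131 and 0.364 as group means in all 10 groups, with 0.227 (0.168 to 0.268) at 36.5 dpp and 0.330 (0.284 to 0.384) at D28. Sox9 per Sox8 was highest at 14.5 dpp, at 3.35 (2.79 to 3.90), and lay between 1.92 and 2.11 as means in explants and between 0.925 and 1.34 in testes of 24.5 dpp and older.

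**Figure D3:**
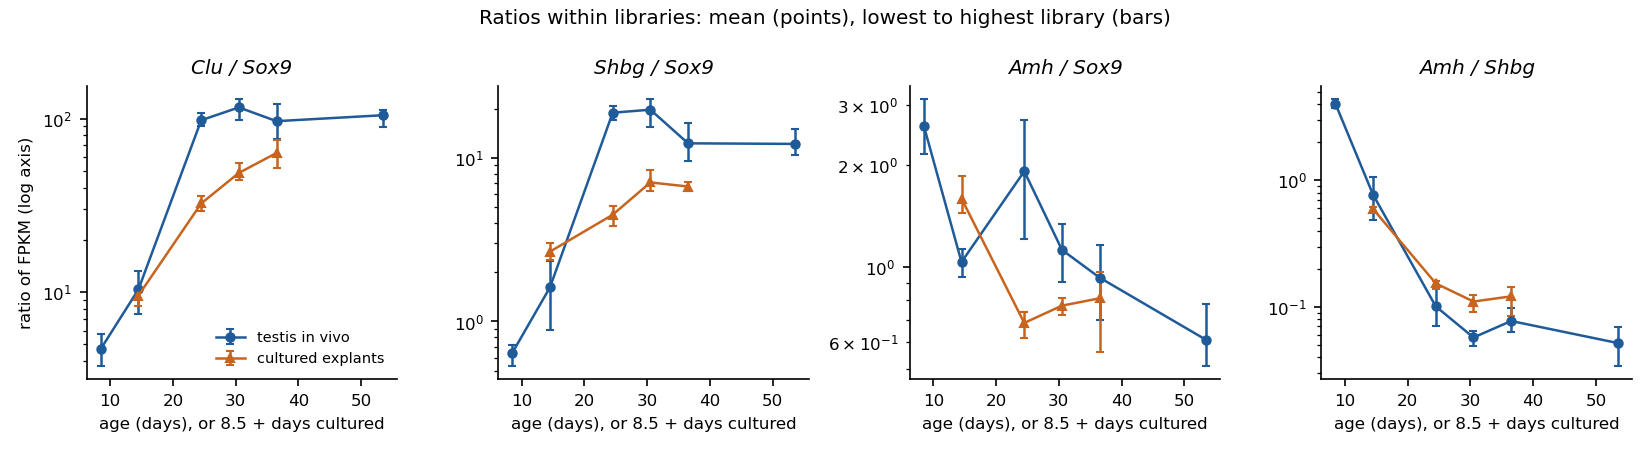
Ratios of FPKM within libraries (y axis, log scale) against age in days or 8.5 plus days in culture, as group means with bars from the lowest to the highest library, blue for testes and orange for explants. Clu per Sox9 and Shbg per Sox9 rise in explants but end below the testes of the same age (63.3 against 96.6 and 6.69 against 12.3 on the last day), while Amh per Shbg falls in both. Sox9 itself differed more between D28 and 36.5 dpp (log2 fold change 3.11) than Clu (2.77) and Shbg (2.5), so the order of these ratios depends on the denominator.

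The wider set of Sertoli cell genes was taken from a list of 25, of which 23 were measured. Their summed level was 3917 FPKM at 8.5 dpp, 4092 at 14.5 dpp, 1996 at 24.5 dpp, 794 at 30.5 dpp, 615 at 36.5 dpp and 473 at 53.5 dpp. In explants it lay between 3757 at D6 and 4360 at D16, with 4310 at D28. At D28 against 14.5 dpp, 2 of 22 genes tested were called higher and none lower by limma, where 15.3% of all genes were called. These were Tf, which encodes the iron carrier transferrin (2.81, standard error 0.31, limma adjusted p = 0.000159), and Ctsl, which encodes the protease cathepsin L (1.58, 0.17, 0.000136). The median of the 22 genes was 0.15 and that of all genes was -0.08. Tf held 12.1 ± 2.65 FPKM at 14.5 dpp (SD, n = 2), 39.3 ± 13.0 at 36.5 dpp and 93.4 ± 33.2 at D28 (SD, n = 3).

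Against 36.5 dpp, 20 of 22 were called higher at D28, where 46.7% of all genes were, and 1 lower, with a median of 2.76 against 0.64 over all genes. The largest differences were those of Ctsl (4.33), Dhh, the hedgehog ligand of Sertoli cells (4.23), Krt8, a keratin of the immature Sertoli cell (3.95), and the transcription factor Gata4 (3.64). Krt8 held 0.144 FPKM on average at 36.5 dpp and 17.4 at D28. At 14.5 dpp it held 10.0 ± 10.3 FPKM (SD, n = 2), and D28 was not called against that age (limma adjusted p = 0.142). The gene called lower was Il1a, which encodes the cytokine interleukin 1 alpha and held 2.52 ± 0.84 FPKM at 36.5 dpp and 0.331 ± 0.21 at D28 (SD, n = 3).

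The genes through which AMH and FSH act were followed alongside. AMH signals through its receptor Amhr2, type I receptors and SMAD proteins, and 6 of 7 such genes were tested. None was called at D28 against 14.5 dpp by limma, where Amhr2 stood at 0.84 (adjusted p = 0.0120) and the median of the 6 genes was -0.08. All 6 were called higher than at 36.5 dpp, where 46.7% of all genes were, with Acvr1 at 2.94, Amhr2 at 2.67, Bmpr1a at 2.36 and Smad1 at 2.32. FSH acts through cyclic AMP, and all 7 genes of its list were tested. At D28, 1 of 7 was called against 14.5 dpp, where 15.3% of all genes were, namely the lower Pde4d, which encodes a phosphodiesterase that degrades cyclic AMP (-1.99, standard error 0.26, limma adjusted p = 0.000351). It held 5.87 ± 3.72 FPKM at 14.5 dpp (SD, n = 2) and 0.598 ± 0.04 at D28 (SD, n = 3). Against 36.5 dpp, 2 of 7, Gnas, the stimulatory G protein (2.79), and Pde4b (1.16), were called higher beside 46.7% of all genes, and Pde4d (-1.54) and Creb1 (-0.73) lower.

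**Figure D4:**
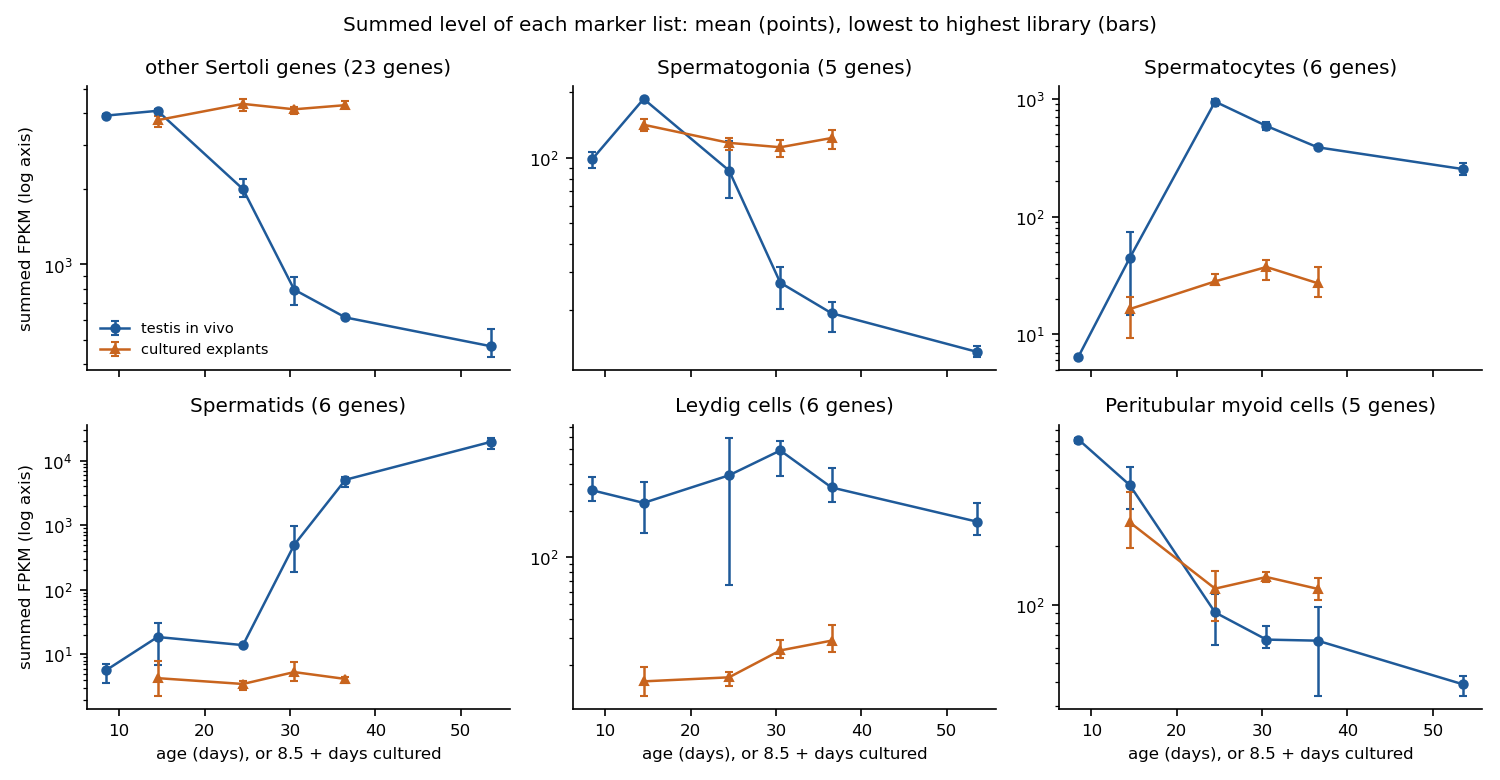
Summed FPKM of marker lists (y axis, log scale) against age in days or 8.5 plus days in culture, as group means with bars from the lowest to the highest library, blue for testes and orange for explants. The 23 other Sertoli genes fall from 4092 FPKM at 14.5 dpp to 615 at 36.5 dpp in the testis and stay between 3757 and 4360 in explants, while spermatids reach 5075 at 36.5 dpp and have group means below 6 in explants.

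The makeup of the tissue differed between testes and explants in ways that move with these values. Spermatocyte genes (6 of 6 measured) summed to 874 to 1003 FPKM at 24.5 dpp and to 20.7 to 42.9 in the libraries of D16 to D28. Spermatid genes (6 of 6) summed to at most 7.88 FPKM in any explant. Leydig cell genes (6 of 6) summed to 12.7 to 36.8 FPKM in explants and to 66.3 to 595 in testes, and peritubular myoid genes (5 of 5) to 81.8 to 380 in explants and 33.6 to 731 in testes. Macrophage genes (5 of 5) summed to 19.1 to 38.2 FPKM in explants against 3.80 to 10.0 in testes. Endothelial genes (4 of 4) summed to 46.9 to 84.0 FPKM in explants and to 1.62 to 46.4 in testes. Their median log2 fold change at D28 was 3.07 against 36.5 dpp, with 3 of 4 called higher beside 46.7% of all genes. Against 14.5 dpp it was 0.96, with 2 of 4 called higher, where 15.3% of all genes were called in either direction. Spermatogonial genes (5 of 5) were all called higher at D28 than at 36.5 dpp, beside 46.7% of all genes. Their median was 1.67, where that of all genes was 0.64. Relative to 14.5 dpp their median was -0.58, where that of all genes was -0.08. Dmrt1, however, is also among the other Sertoli genes. It held 92.0 of the 123 FPKM summed over this list at D28, and the median of -0.58 is its own value. The part of these differences in tissue makeup in the levels of the Sertoli genes was not tested. Mesothelium, which also uses Wt1, had a sum of at most 3.64 FPKM over the 2 of 4 genes measured, with 1 of these at 0 everywhere. The 4 measured genes of the erythroid list, Alas2, Klf1, Epor and Hbb, had a sum of 452 FPKM at 8.5 dpp, in libraries where Gata1 is listed at 0. The list includes a haemoglobin gene, Hbb, so the sum cannot be credited to red blood cell precursors, which use Gata1.

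Genes that ran most like each member were ranked by the Pearson correlation of mean log2(FPKM + 1) over the 10 groups, among 12085 genes whose median reached 1 FPKM in some group. The points share the same libraries and the same change in tissue makeup, and no test was made. Sox8 and Wt1 ran most closely together among members (0.995), followed by Sox9 and Wt1 (0.985). Clu and Shbg ran together (0.959) and apart from Amh, which correlated with Clu at 0.209 and with Shbg at 0.313. Outside the members, Rhbdl3 (0.999) and Rai1 (0.999) ran like Wt1, Zfp483 (0.998) like Sox9, Pla2g5 (0.998) like Fshr and Lsm7 (0.996) like Amh. The closest to Clu was Crebl2 (0.986), and the closest to Shbg was Susd3 (0.982). For Rhox5 no gene passed 0.858, the value of Slc25a45.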

How the data were processed

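RNA-seq values of 30 libraries were deposited and 29 were used. The authors aligned reads to rn6 with STAR 2.5.2a, quantified RefSeq transcripts with StringTie and Ballgown and deposited FPKM (called RPKM in the study) per Entrez gene, not pooled over replicates. Of 17322 genes, 17172 were found in a RefSeq gene table, from which symbols were taken. Read counts were not used, so depth is unknown and no interval for counting error is given.

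Deposited FPKM were put on log2(FPKM + 1). Genes with a group median under 0.5 FPKM in every compared group were left out. The tests were those of limma 3.58.1 (R 4.3.3), with Benjamini-Hochberg adjustment over all genes tested, and called as the report states. Fold changes on this scale understate changes of low genes. Explants at D16 to D28 and 14.5 dpp testes shared 1 fit, as did the 6 ages, the 4 culture times with 8.5 dpp, and the 4 groups of the compared courses, while each comparison of the same age had its own fit. The design assigned samples by their labels. The p-values of limma weigh a difference between groups against the spread between these libraries. For cultured groups this is the spread between pools of explants, and for in vivo groups that between single testes. The comparisons share control libraries and are not independent. The script was tested on simulated data.

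The 9 genes, the other lists and the rule for naming genes were chosen with earlier results of these data known. From the other lists, the called genes with the 4 largest differences at D28 were named, and those for which other values are given were named after their values were seen. For each member the 3 most similar genes were computed, and some of them are named. Alternatives changed the pseudocount, filter, normalization, prior variance, groups in the fit and call rule, added a replicate block and left out each library. Marker genes without an entry were not analysed here. Python 3.11.15, numpy 2.4.6, pandas 2.3.3 and matplotlib 3.10.9 were used for descriptions, promoter motifs and plots.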

Additional observations from a re-analysis of the deposited data

Results flagged for a closer look

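The change from D6 to D28 in culture differed from the change from 14.5 to 36.5 dpp in the testis for 7 of the 8 genes tested, by limma's test of the difference itself. On the log2(FPKM + 1) scale the difference was 3.47 for Sox9, 3.19 for Clu, 2.89 for Wt1, 2.72 for Fshr, 2.63 for Amh, 2.04 for Sox8 and 1.99 for Shbg, each higher in culture. Among all 12482 genes tested, 38.4% were called higher in this comparison. With 2 or 3 libraries a group, no group was large enough to be screened for single libraries that stand apart.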

How the results depend on the processing

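Most calls did not turn on the processing. No gene that was called in either fit changed direction under another pseudocount, filter, normalization, prior variance, set of groups or replicate block. Asking for the adjusted p alone, without the factor of 2, raised the number of the 8 genes called against 14.5 dpp to 5 (D16), 5 (D22) and 6 (D28), to 5 at D16 against 24.5 dpp, to 1 from 30.5 to 36.5 dpp, to 2 from 36.5 to 53.5 dpp, to 5 from 8.5 dpp to D6, to 4 from D6 to D16 and to 2 from D16 to D28. Among all genes tested, this rule also raised the share called at D16 and D22 against 14.5 dpp, from 13.0% and 13.8%. The rises in these comparisons are therefore not particular to the 8 genes. Of the 8 genes, that rule also added Sox9 from 8.5 to 14.5 dpp and Sox8 from 14.5 to 24.5 dpp. From 36.5 to 53.5 dpp the number called was 0 without the filter and 0 with quantile normalization.

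Taken relative to the mean of Sox9 and Wt1 in the same library, as a description, the called differences between D28 and 36.5 dpp turned negative for Amh (-0.34), Clu (-0.46), Shbg (-0.72) and Sox8 (-0.78). Wt1 (3.33) and Sox9 (3.11) had the largest log2 fold changes of all members in that comparison. The negative signs therefore follow from the choice of these references and are not a separate result. For Amh the libraries of D28 (-1.75 to -0.89) and 36.5 dpp (-1.02 to -0.62) overlapped on this scale. The sign of Fshr (-0.19) is set by the pseudocount near 1 FPKM, since its ratios of FPKM to Sox9 and to Wt1 were higher at D28. Sox9 (-0.11) and Wt1 (0.11) mirror each other by construction, so neither says anything here. At D28 against 14.5 dpp the called differences of Clu and Shbg kept their sign, and D16 and D22 were not set against 14.5 dpp in this way.

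With each library left out in turn, the number called ranged from 2 to 3 at D16, D22 and D28 against 14.5 dpp, from 0 to 1 at D6 against 14.5 dpp, from 3 to 4 at D16 against 24.5 dpp, from 7 to 8 at D28 against 36.5 dpp, from 3 to 6 from 14.5 to 24.5 dpp, from 0 to 1 from 36.5 to 53.5 dpp and from 0 to 1 from D16 to D28. It was 8 throughout at D22 against 30.5 dpp. Of 1576 single results with a library left out, 17 lost their call and 21 gained one. A group left with 1 library was assumed to vary like the others.

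Same-numbered libraries share only a number: the correlation of their deviations ran from -0.13 to 0.22 over 42 pairs, with 3 above 0.1. With the replicate block, 126 of 128 results kept their call or lack of one, and Rhox5 was called at D16 against 24.5 dpp (-0.40) and from 24.5 to 30.5 dpp (-0.81). Values near 1 FPKM, such as those of Rhox5, are limited by an unknown depth.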
